A study of Mus musculus with 1019 samples.

Results

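Heat shock chaperones were followed across single regulatory T cells (Tregs) by 10 genes chosen by symbol: Hspa1a, Hspa1b, Hspa8, Hspa5, Hsp90ab1, Hspd1, Hspe1, Hsph1, Dnaja1 and Dnajb1. All 10 had a row among the 23725 genes of the deposited table, and all 10 held 50 or more unique molecular identifiers (UMIs, each standing for 1 captured mRNA molecule) over the libraries, as did 4635 genes in all. The cells were CD4+ CD25+ T cells, gated as DAPI- TCRb+, from the epididymal visceral adipose tissue (VAT) and the spleen of male B6 mice aged 20 months, profiled by inDrops, a droplet method that captures mRNA by its poly(A) tail. VAT library 2 held 330 cells and VAT library 3 held 314, the numbers being those in the labels, and the spleen library held 375. The mice carried no transgene or treatment in the labels, which name no animal, so each library was taken as 1 sample and no p-value was computed. Adipose tissue was freed into cells with collagenase and dispase and spleen by mechanical means alone, so tissue and dissociation cannot be told apart in any value below.

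Heat shock proteins are molecular chaperones: they bind unfolded or newly made proteins and keep them from aggregating until they fold. HSP70 proteins work in ATP-driven cycles started by J-domain partners and reset by nucleotide exchange factors, HSP90 matures kinases and receptors, and the mitochondrial HSP60 ring with its HSP10 lid folds proteins imported into that organelle. Under proteotoxic stress, heat shock factor 1 binds repeats of the letters GAA, alternating in direction, in the promoters of many of these genes, while stress in the endoplasmic reticulum (ER) acts through other elements on the ER-resident HSP70. Some members are made in nearly every cell at rest, others are strongly stress-inducible, and T cells raise several of them on activation.

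The promoters of the members are shown first, for the elements through which these 2 responses are known to act. RefSeq windows of 250 bases before to 50 bases after a transcription start were at hand for 8 of the 10 members on build GRCm38.p6, in 13 entries. A 2-unit heat shock element was searched as GAANNTTC or TTCNNGAA, which read the same on both strands, and a 3-unit element as GAANNTTCNNGAA or TTCNNGAANNTTC, which holds the 2-unit form within it. The 2-unit letters were in 15.1% of all 32851 windows and in 6 of the 8 members (Hspa1a, Hspa1b, Hspd1, Hspe1, Hsph1 and Dnaja1). The 3-unit letters were in 0.603% of windows and in 3 members, Hspd1 (1 of its 2 windows), Hspe1 and Hsph1. The ER stress element, searched on both strands as CCAAT, any 9 bases and CCACG, was in 0.119% of windows and in 1 member, Hspa5. A member was counted when any of its windows held the letters, so its count and the share of windows are unlike measures. Nor are the members separate hits: Hspa1a and Hspa1b are near-identical copies, and Hspd1 and Hspe1 share the same stretch. These matches describe letters and not bound sites. Below, the stretches upstream of the 2 stress-inducible HSP70 genes, of Hspe1 and of Hspa5 are printed on each gene's own strand up to the base before the start. They are examples: Hsph1, which also held the 3-unit letters, is not printed. Whether an element goes with a level described further on was not tested. Capitals mark the 2-unit and 3-unit heat shock elements in Hspa1a, Hspa1b and Hspe1, and the ER stress element in Hspa5.
Hspa1a (chr17:34972157-34972406, minus strand): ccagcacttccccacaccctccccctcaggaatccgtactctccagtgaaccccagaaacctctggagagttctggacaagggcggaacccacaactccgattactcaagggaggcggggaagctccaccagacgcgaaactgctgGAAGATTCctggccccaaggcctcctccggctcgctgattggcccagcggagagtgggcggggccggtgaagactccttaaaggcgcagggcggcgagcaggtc
Hspa1b (chr17:34959239-34959488, minus strand): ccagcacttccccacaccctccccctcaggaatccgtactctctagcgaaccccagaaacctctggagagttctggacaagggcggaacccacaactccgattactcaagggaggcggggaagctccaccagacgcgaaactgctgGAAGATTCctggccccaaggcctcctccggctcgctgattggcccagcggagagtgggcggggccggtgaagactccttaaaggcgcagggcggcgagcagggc
Hspe1 (chr1:55087948-55088147, plus strand): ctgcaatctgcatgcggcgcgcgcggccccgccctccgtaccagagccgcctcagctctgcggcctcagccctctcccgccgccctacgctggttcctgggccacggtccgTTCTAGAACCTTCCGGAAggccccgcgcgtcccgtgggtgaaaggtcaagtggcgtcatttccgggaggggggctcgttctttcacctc
Hspa5 (chr2:34771890-34772089, plus strand): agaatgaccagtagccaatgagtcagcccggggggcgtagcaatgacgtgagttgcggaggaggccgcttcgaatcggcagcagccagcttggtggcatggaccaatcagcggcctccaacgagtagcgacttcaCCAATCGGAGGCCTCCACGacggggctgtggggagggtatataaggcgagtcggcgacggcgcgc

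Hspa1a and Hspa1b are neighbouring single-exon genes on the minus strand of chromosome 17, with 9951 bases between them in the GENCODE M21 annotation. Their 250 upstream bases differed at 3 positions, and each held its element 104 bases before the start. Their coding sequences were 99.5% identical, whereas the last 300 bases of their transcripts, near the tail by which mRNA is captured, aligned at 52.8% identity. How reads from the shared part were assigned is not given in the sources used here, so the division of counts between the copies is uncertain and the sum of both is given beside each. Hspe1 and Hspd1 lie on opposite strands of chromosome 1, and RefSeq gives Hspd1 2 starts. The start 216 bases away from that of Hspe1 has the block of elements printed for Hspe1 in its window as well. The other start lies within the Hspe1 gene, and its window held no heat shock element.

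The libraries were close in depth, with 556099 and 548770 UMIs in VAT libraries 2 and 3 and 573622 in spleen, and with medians of 1565, 1611 and 1423 UMIs per cell. Foxp3, the master regulator of Tregs, had 263 and 189 UMIs in VAT and 221 in spleen, and all 11 Treg and CD4 T cell markers were present in every library. Of the markers of B cells, CD8 T cells, myeloid cells and adipocytes, Cd79a, Cd8a, Adgre1, Cd14, Adipoq and Plin1 had no UMI anywhere. Other markers of the same lists did have UMIs. Erythroid markers summed to 1 and 1 UMI in VAT and 116 in spleen, where Hba-a2 led, and the 7 of 9 myeloid markers with a UMI summed to 119 and 124 in VAT and 53 in spleen, nearly all from Cst3. The 4 of 8 stromal and endothelial markers with a UMI summed to 1 and 4 in VAT and 31 in spleen, mostly Pecam1. The B cell, CD8 and NK, and adipocyte lists each summed to few UMIs, 9 to 36 in any library. Cd22 led the B cell list (9 and 12 UMIs in VAT, 20 in spleen) and Cd8b1 the CD8 and NK list (32 and 30, 28). Lpl led the adipocyte list (7 and 8 in VAT, 12 in spleen). Ribosomal protein genes held 17.9% and 19.9% of UMIs in VAT and 30.6% in spleen. The part of these differences in the chaperone values was not tested. VAT libraries 2 and 3 shared 2 cell barcodes, VAT library 3 and spleen shared 1, and VAT library 2 and spleen shared 0. The labels of the spleen cells give spleen as the source but name both tissues in another field.

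Summed, chaperone transcripts took a slightly smaller share of UMIs in both VAT libraries than in spleen, while individual members lay on either side. The 10 members together held 0.471% of UMIs in VAT library 2 (95% exact interval 0.454 to 0.490%), 0.461% in VAT library 3 (0.443 to 0.479%) and 0.517% in spleen (0.498 to 0.536%). These shares stand for 2622 and 2529 UMIs in VAT and 2964 in spleen. Hsp90ab1 gave 515 and 591 of them in VAT and 793 in spleen. Hspe1 gave 144 and 127 in VAT and 284 in spleen. The smaller sum thus rested largely on these members and was not shared by all. Hspa5, Dnaja1 and Dnajb1 went the other way in both VAT libraries. The median cell held 6, 7 and 7 chaperone UMIs, and 3, 5 and 5 cells held none. Of the 10 members, 0 were at least 2-fold higher in both VAT libraries than in spleen, against 10.3% of the 4635 genes, and 0 were at least 2-fold lower, against 4.4%. At 1.5-fold, 1 member was higher (Hspa5, against 17.9% of genes) and 1 lower (Hspe1, against 12.8% of genes). Hsph1, at ratios of 0.352 and 0.665, missed the 1.5-fold call in VAT library 3 only once 0.5 was added to each count. By any amount, 3 of 10 members were higher in both VAT libraries, against 41.3% of genes, and 6 of 10 were lower, against 40.5%. The members' median log2 ratio was -0.25 in VAT library 2 and -0.23 in VAT library 3, where that of all 4635 genes was 0.04 and -0.02. Counting totals without ribosomal protein genes moved every log2 ratio by -0.24 in VAT library 2 and -0.21 in VAT library 3. The split of all genes past 2-fold was then 379 higher to 342 lower in place of 478 to 204, and Hspe1 became 2-fold lower in both libraries. Intervals here and below cover the counting of molecules alone, and since UMIs of a gene cluster in cells they are too narrow.

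**Figure D1:**
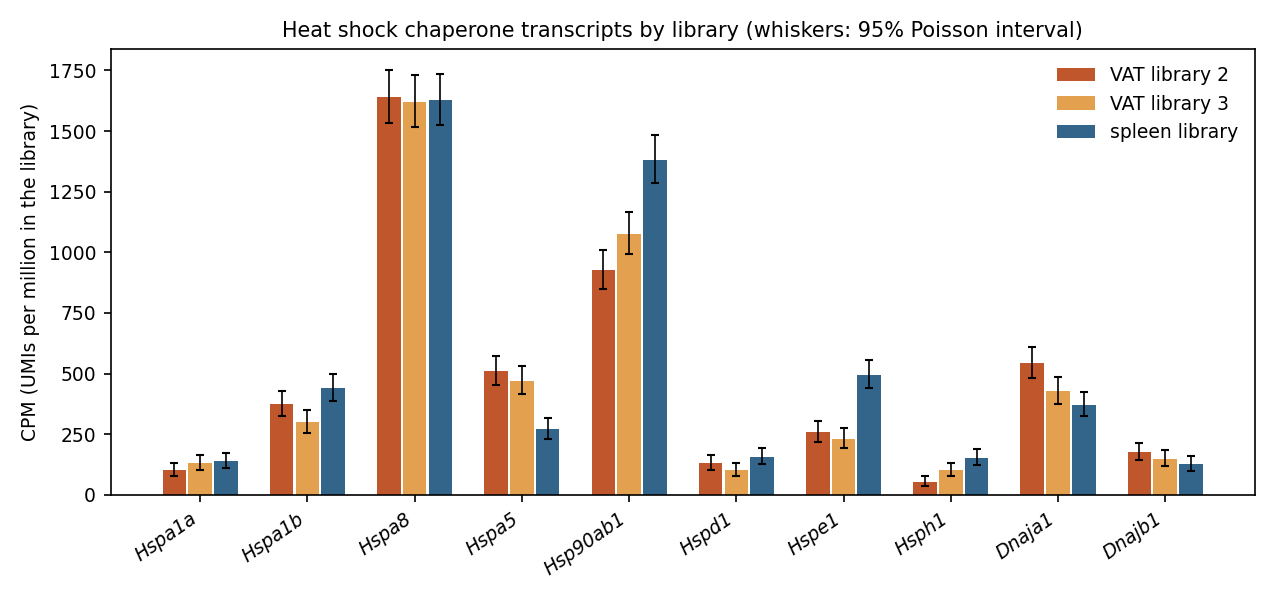
CPM (counts per 1000000 UMIs of the library, vertical axis, linear from 0) of each of the 10 chaperones in VAT library 2, VAT library 3 and spleen, with 95% Poisson intervals as whiskers. Hspa8 is at about the same height in the 3 libraries, Hspa5 is higher in both VAT libraries, and Hspe1 and Hsp90ab1 are lower in both.

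Among the HSP70 proteins, constitutive Hspa8 (HSC70), which folds new proteins and strips clathrin coats, held the most UMIs of the members and was level between tissues. It had 912 and 889 UMIs in VAT, or 1640 CPM (1535 to 1750) and 1620 CPM (1515 to 1730), and 934 UMIs in spleen, or 1628 CPM (1525 to 1736). The ratios over spleen were 1.01 (0.918 to 1.10) and 0.995 (0.907 to 1.09), with 1 inside both intervals. Hspa8 was found in 68.0% and 68.1% of VAT cells and in 67.7% of spleen cells once each cell had been thinned to 800 UMIs, a depth that no cell fell below (86.1%, 87.3% and 84.5% before thinning). Without ribosomal protein genes in the totals its log2 ratios were -0.23 and -0.21, the shift given above.

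Hspa5 (BiP), the HSP70 of the ER and a classic target of the unfolded protein response, was the member with the highest ratio in both VAT libraries. It had 284 and 258 UMIs in VAT, or 511 CPM (453 to 574) and 470 CPM (415 to 531), and 156 UMIs in spleen, or 272 CPM (231 to 318). The VAT libraries were close to each other and neither interval reached that of spleen. The ratios were 1.88 (1.54 to 2.30) and 1.73 (1.41 to 2.12), higher in 2 of 2 VAT libraries. Hspa5 was found in 27.9% (23.1 to 33.1%) and 28.6% (23.7 to 34.0%) of thinned VAT cells and in 18.0% (14.4 to 22.4%) of thinned spleen cells; before thinning the shares were 43.6%, 45.9% and 27.7%. Its log2 ratio kept its sign in every alternative computed, from 0.58 in VAT library 3, once ribosomal proteins were taken out of the library total, to 1.11 in VAT library 2, in cells without a UMI of another cell type's markers.

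The stress-inducible pair Hspa1a and Hspa1b was set apart from the other members by how its molecules were spread over cells. Hspa1b had 208 and 164 UMIs in VAT and 253 in spleen, with ratios of 0.848 (0.702 to 1.02) and 0.678 (0.553 to 0.828). Hspa1a had 57 and 71 UMIs in VAT and 80 in spleen, with ratios of 0.735 (0.514 to 1.05) and 0.928 (0.664 to 1.29). Summed, the pair stood at 477 and 428 CPM in VAT and 581 CPM in spleen. The ratios of all 4 lay below 1 by less than 1.5-fold, and 3 of the 4 intervals held 1, the exception being Hspa1b in VAT library 3. The sign was not stable: in cells without UMIs of other cell types' markers the log2 ratio of Hspa1b in VAT library 2 was 0.15, and with cells weighted equally that of Hspa1a in VAT library 3 was 0.06. Nor was the size: in cells with a Foxp3 UMI, VAT library 3 stood at -1.02 for Hspa1a and -1.26 for Hspa1b. In VAT library 2 the same cells gave -0.42 and -0.23.

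A UMI of Hspa1b was seen in fewer VAT cells than spleen cells, and the cells that had it held more of it in VAT. At 800 UMIs per cell, Hspa1b was found in 9.05% (6.22 to 12.7%) and 8.17% (5.48 to 11.9%) of VAT cells and in 17.1% (13.4 to 21.3%) of spleen cells; before thinning the shares were 10.3%, 10.2% and 21.1%. Hspa1a was found in 4.11% and 4.20% of thinned VAT cells and in 6.63% of thinned spleen cells. Among cells with Hspa1b before thinning, the mean was 6.12 and 5.13 UMIs in VAT and 3.20 in spleen. For the pair together, in 1 thinning to equal depth, cells with a UMI held a mean of 3.44 and 3.42 in VAT and 2.51 in spleen. Cells holding a lone UMI of the pair numbered 5 of 330 and 8 of 314 in VAT and 37 of 375 in spleen. Cells holding 10 or more numbered 7 and 7 in VAT and 5 in spleen, and these few carried 40.8% and 55.7% of all UMIs of the pair in VAT and 27.3% in spleen. The richest cells held 23, 33 and 35 UMIs of the pair. Stray RNA of red cells was followed by Hba-a2, which was found in 0 VAT cells and in 8.53% (5.91 to 11.8%) of thinned spleen cells. That level does not measure stray RNA of other genes, so it cannot decide about Hspa1a or Hspa1b. The intervals of Hspa1a were 2.34 to 7.02% and 2.22 to 6.98% in VAT and 4.36 to 9.68% in spleen. They overlapped. Such intervals cover the draw of cells within a library alone. With 1 spleen library, neither their overlap nor their separation can decide a difference between tissues, for Hspa1a or for Hspa1b. Before thinning, 52 of 375 spleen cells held Hba-a2, more than the 37 with a lone UMI of the pair. What part stray RNA had in these shares was not tested.

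**Figure D2:**
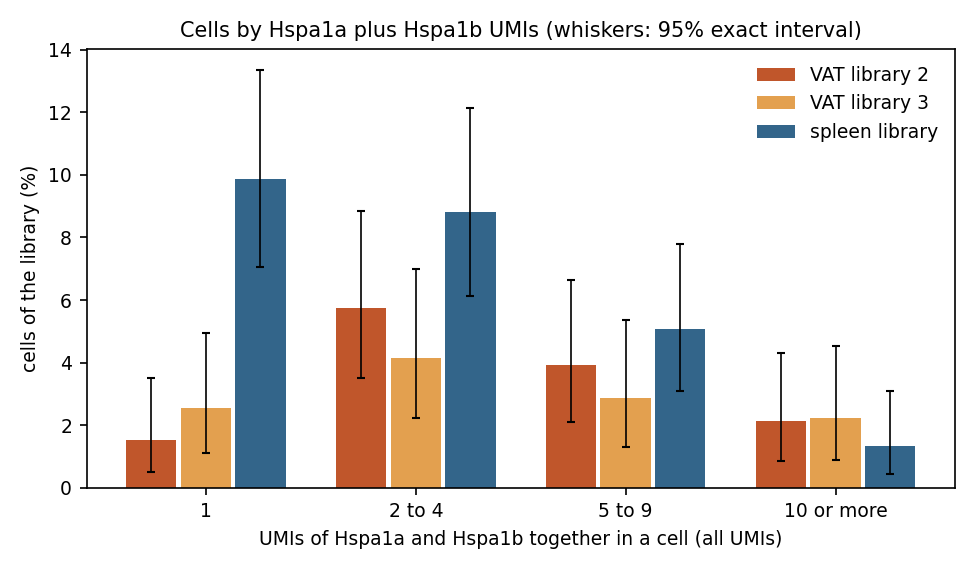
Share of each library's cells (vertical axis, %) that held 1, 2 to 4, 5 to 9, or 10 or more UMIs of Hspa1a and Hspa1b together, all UMIs counted, with 95% exact binomial intervals as whiskers; cells with 0 (86.7%, 88.2% and 74.9%) are not drawn. The widest gap is in the bin of a lone UMI, at 1.52% and 2.55% in VAT library 2 and VAT library 3 and 9.87% in spleen, while the bin of 10 or more holds 2.12% and 2.23% of VAT cells and 1.33% of spleen cells.

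The variance over the mean (Fano factor) of UMIs across thinned cells puts a number on this spread. For Hspa1b it was 5.36 and 5.58 in VAT and 5.81 in spleen, where the median over all genes with 50 or more UMIs in the library was 1.34, 1.37 and 1.38. In VAT library 3, 0 of 1693 genes had a higher value. In VAT library 2, 4 of 1789 did, and in the spleen library 1 of 1745 did. Those 4 were Penk, Cxcl10, Cxcl2 and Il10, and the spleen gene was again Penk, which encodes proenkephalin; they were named after their values were seen. Hspa1a had 2.62 and 5.08 in VAT and 3.03 in spleen, with 26, 2 and 7 genes above it. The other 8 members lay between 1.15 and 1.83 in the libraries where they had 50 UMIs, so they were spread over cells much like other genes.

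**Figure D3:**
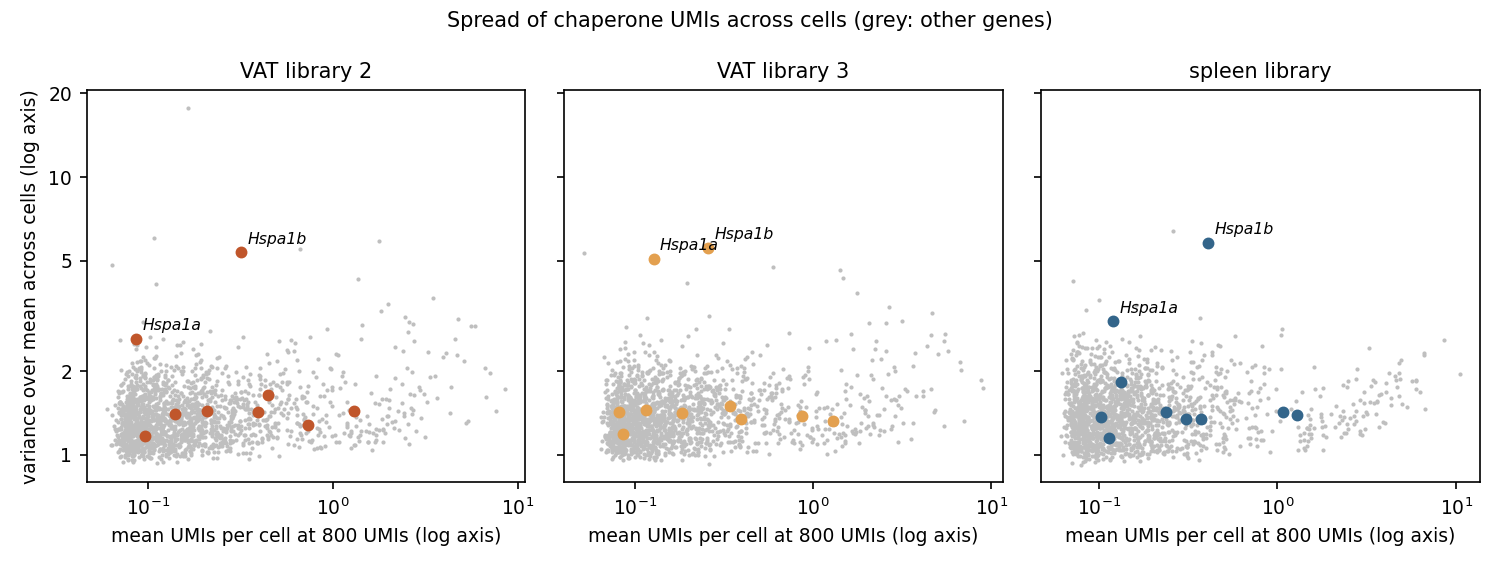
Variance over mean of UMIs across cells (vertical log axis) against mean UMIs per cell (horizontal log axis), each cell thinned to 800 UMIs, for genes with 50 or more UMIs in VAT library 2, VAT library 3 and spleen. Coloured points are the chaperones: Hspa1b stands at 5.36, 5.58 and 5.81 near the top of each panel, and the members other than Hspa1a and Hspa1b lie within the grey cloud of all genes.

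Hspa1a and Hspa1b were found in the same cells more than in others. In 1 thinning to 800 UMIs, Hspa1a was seen in 16.1% (5.45 to 33.7%) of Hspa1b cells in VAT library 2, against 2.68% of the rest. The shares were 29.6% (13.8 to 50.2%) against 1.39% in VAT library 3, and 24.2% (14.5 to 36.4%) against 3.56% in spleen. The counts behind them are small, at 5, 8 and 16 cells with both. In the same thinning, the 39 cells of VAT library 2 with a UMI of either gene held 4.10 (3.49 to 4.79) UMIs per cell of the other 8 chaperones, against 3.27 (3.06 to 3.48) in the 291 cells without. In VAT library 3 the values were 4.19 (3.50 to 4.98) in 31 cells with a UMI and 3.23 (3.02 to 3.44) in 283 without. In spleen they were 3.57 (3.16 to 4.02) in 77 cells with a UMI and 3.66 (3.45 to 3.89) in 298 without. The sum was thus higher beside Hspa1 in both VAT libraries and level in spleen, and the difference between tissues was not tested. Single members went both ways: in VAT library 3 Hsp90ab1 stood at 1.32 UMIs per cell with and 0.760 without, and Hspe1 at 0.419 and 0.145, whereas Dnaja1 stood at 0.290 and 0.339 and Hsph1 at 0 and 0.0707. In VAT library 2 Hspa5 stood at 0.359 with and 0.416 without. The AP-1 and immediate early list stood at 22.5 with and 25.5 without in VAT library 2, 18.8 and 23.6 in VAT library 3, and 1.77 and 1.38 in spleen. Foxp3 stood at 0.282 UMIs per cell with and 0.378 without in VAT library 2, 0.355 and 0.311 in VAT library 3, and 0.338 and 0.346 in spleen.

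The J-domain partners that deliver clients to HSP70 leaned the other way from Hspa1. Dnaja1 had 302 and 235 UMIs in VAT, or 543 CPM (484 to 608) and 428 CPM (375 to 487), and 213 in spleen, or 371 CPM (323 to 425). Its ratios were 1.46 (1.22 to 1.75) and 1.15 (0.954 to 1.39), so VAT library 3 did not differ from spleen beyond counting error, and without ribosomal protein genes in the totals it was level with spleen. Dnajb1 (HSP40), the co-chaperone that is itself heat-inducible, had 97 and 82 UMIs in VAT and 73 in spleen, with ratios of 1.37 (1.001 to 1.88) and 1.17 (0.846 to 1.63). In cells with a Foxp3 UMI the log2 ratios of Dnajb1 were -0.59 and -0.33, and that of Dnaja1 in VAT library 3 was -0.19, so the direction of both depended on the cells counted.

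Hsph1 (HSP110), which exchanges the nucleotide of HSP70 and helps it take aggregates apart, was the least even member between the VAT libraries. It had 30 and 56 UMIs in VAT, or 53.9 CPM (36.4 to 77.0) and 102 CPM (77.1 to 133), and 88 in spleen, or 153 CPM (123 to 189). The ratios over spleen were 0.352 (0.224 to 0.538) and 0.665 (0.467 to 0.940). VAT library 3 stood 1.89-fold (1.19 to 3.05) above VAT library 2, and Hsph1 was the 1 member at least 1.5-fold apart between these libraries, where 19% of genes were. In cells with a Foxp3 UMI its log2 ratio in VAT library 3 was 0.56, and in cells free of other types' markers it was 0.19.

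Hsp90ab1, the constitutive cytosolic HSP90, was lower in both VAT libraries by less than 1.5-fold. It had 515 and 591 UMIs in VAT, or 926 CPM (848 to 1010) and 1077 CPM (992 to 1167), and 793 in spleen, or 1382 CPM (1288 to 1482). The ratios were 0.670 (0.598 to 0.749) and 0.779 (0.699 to 0.868), lower in 2 of 2 libraries and in every alternative computed. It was found in 47.8% and 51.6% of thinned VAT cells and in 58.9% of thinned spleen cells. Hsp90aa1, its inducible relative, had 318 and 226 UMIs in VAT and 356 in spleen, with ratios of 0.921 (0.790 to 1.07) and 0.664 (0.559 to 0.786).

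The ratios of both subunits of the mitochondrial chaperonin were below 1 in both VAT libraries, though the interval of Hspd1 in VAT library 2 held 1. Hspe1 (HSP10), the lid of the ring, had 144 and 127 UMIs in VAT, or 259 CPM (218 to 305) and 231 CPM (193 to 275), and 284 in spleen, or 495 CPM (439 to 556). Its ratios of 0.523 (0.425 to 0.641) and 0.467 (0.376 to 0.578) lay on either side of the 2-fold line. Both VAT intervals lay below that of spleen, and the sign held in every alternative computed. Hspe1 was found in 15.9% (12 to 20.1%) and 14.0% (10.4 to 18.4%) of thinned VAT cells and in 26.9% (22.5 to 31.7%) of thinned spleen cells (25.5%, 22.9% and 40% before thinning). Hspd1 (HSP60), the ring itself and the neighbour of Hspe1, had 73 and 56 UMIs in VAT and 90 in spleen, with ratios of 0.837 (0.606 to 1.15) and 0.650 (0.457 to 0.918). Its log2 ratio in VAT library 2 was 0.09 in cells with a Foxp3 UMI. Whether Hspe1 and Hspd1 differ in their ratios was not tested.

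**Figure D4:**
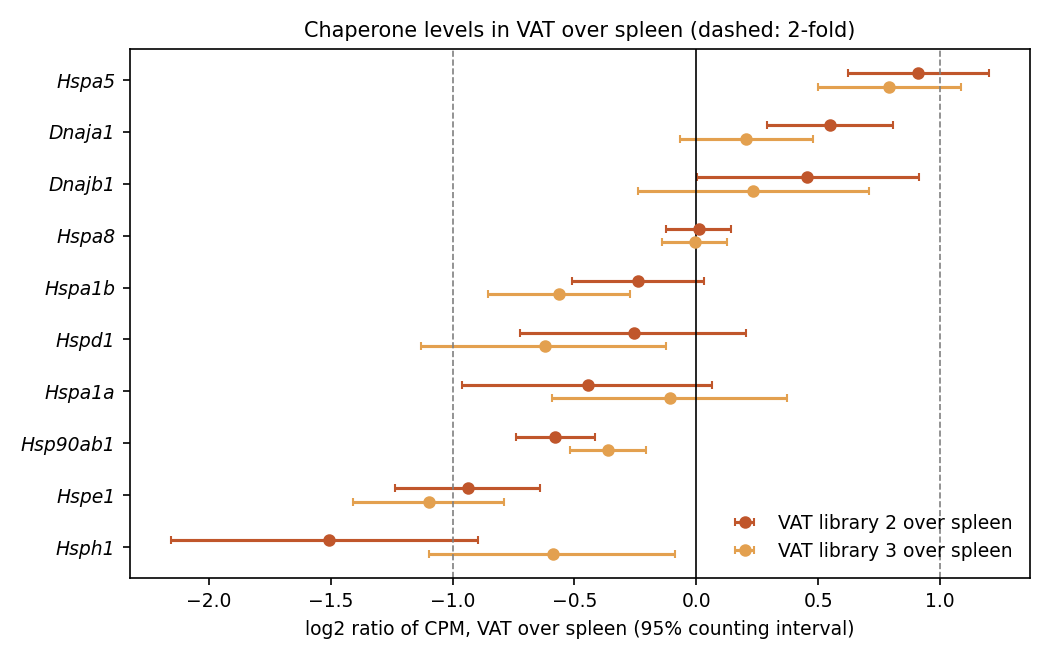
log2 ratio of CPM, VAT library 2 and VAT library 3 each over spleen (horizontal axis), for the 10 chaperones from the highest to the lowest ratio in VAT library 2, with exact 95% counting intervals; dashed lines mark 2-fold. Hspa5 lies right of 0 with both intervals, Hspa8 lies on 0, and Hsp90ab1, Hspe1 and Hsph1 lie left of 0 with both intervals, at a ratio of 0.352 for Hsph1 in VAT library 2.

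The wider folding machinery was read from lists of related genes. In the list of ER folding and the unfolded protein response, 25 genes were eligible; 5 were 2-fold higher in both VAT libraries (10.3% of all genes) and 0 lower, and by any amount 16 were higher (41.3% of all genes) and 7 lower (40.5%), with median log2 ratios of 0.30 and 0.36. Ero1l, the oxidase that drives disulfide formation, had 87 and 95 UMIs in VAT and 6 in spleen, with ratios of 14.96 (6.60 to 41.9) and 16.6 (7.33 to 46.2). Atf6, a membrane-bound sensor of ER stress, had 37 and 36 UMIs in VAT and 9 in spleen. Syvn1, the ubiquitin ligase of ER-associated degradation, had 40 and 38 in VAT and 16 in spleen. Selk, a selenoprotein of the same pathway, had 138 and 169 in VAT and 64 in spleen, and Txndc5, a disulfide isomerase, had 22 and 20 in VAT and 10 in spleen. Hsp90b1 (GRP94), the HSP90 of the ER, had 149 and 172 UMIs in VAT and 175 in spleen, with ratios of 0.878 (0.701 to 1.10) and 1.03 (0.828 to 1.28), whose intervals held 1; the difference from Hspa5 was not tested.

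Of 12 eligible genes of the CCT chaperonin, which folds actin and tubulin, and of prefoldin, 1 was 2-fold lower (4.4% of all genes) and 0 were higher, and by any amount 10 were lower (40.5% of all genes) and 1 higher, with median log2 ratios of -0.47 and -0.41. Cct5 was the 1 past 2-fold, with 32 and 39 UMIs in VAT and 94 in spleen. Of 11 eligible mitochondrial folding genes and proteases, 2 were 2-fold lower (4.4% of all genes) and 0 higher (10.3%). By any amount 7 were lower (40.5% of all genes) and 3 higher (41.3%). Phb, a prohibitin of the inner membrane, was past 2-fold with 42 and 40 UMIs in VAT and 98 in spleen. So was Grpel2, a nucleotide exchange factor, with 14 and 15 in VAT and 34 in spleen. Of 18 eligible cytosolic co-chaperones, 1 was 2-fold higher (10.3% of all genes) and 0 lower (4.4%). By any amount 7 were higher and 11 lower. The 1 was Fkbp5, an HSP90 partner induced by glucocorticoids, with 88 and 85 UMIs in VAT and 36 in spleen. Its ratios were 2.52 (1.69 to 3.83) and 2.47 (1.65 to 3.75). Of 6 eligible other HSP90, HSP70, HSP110 and small HSP genes, and of 17 other J-domain proteins, 0 passed 2-fold in either direction. Of all genes, 10.3% were higher and 4.4% lower. Dnajc8 and Dnajc9 had the most UMIs of the J-domain list. They stood at 108 and 76 in VAT and 92 in spleen, and at 88 and 82 in VAT and 64 in spleen. Hsf1, the heat shock factor itself, had 33 and 31 UMIs in VAT and 16 in spleen; its ratios were 2.13 (1.14 to 4.14) and 2.03 (1.07 to 3.96), and it missed the call in VAT library 3 once 0.5 was added to each count. Hsbp1, a binder of heat shock factors, had 54 and 72 UMIs in VAT and 68 in spleen.

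Some other programmes differed between the same libraries by larger folds. Median log2 ratios were 4.09 and 4.20 for the AP-1 list, 1.34 and 1.13 for activation and -0.79 and -0.64 for interferon response. The nucleolar and growth list (-0.30 and -0.44) and the cell cycle list (-0.45 and -0.35) lay nearer the members' -0.25 and -0.23. Of 16 eligible AP-1 and immediate early genes, 15 were 2-fold higher in both VAT libraries, against 10.3% of all genes. The list summed to 30662 and 28110 CPM in VAT and 1841 CPM in spleen. Fos had 913 and 1014 UMIs in VAT and 16 in spleen, Nr4a1 had 2454 and 1828 in VAT and 76 in spleen, and Fosb had 1336 and 1129 in VAT and 0 in spleen. Of 14 eligible activation genes 8 were higher (10.3% of all genes), and Cd69 led them with 722 and 640 UMIs in VAT and 28 in spleen. Of 19 eligible nucleolar and growth genes 1 was higher (10.3% of all genes), Odc1, with 548 and 531 UMIs in VAT and 52 in spleen. By any amount 13 were lower (40.5% of all genes) and 2 higher (41.3%). Of 13 interferon response genes 4 were 2-fold lower (4.4% of all genes) and 1 was higher (10.3%). Of 6 cell cycle genes 0 passed 2-fold. AP-1 genes are known to be induced by enzymatic digestion as well as by activation, and the 2 cannot be told apart here.

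Across cells of a library, chaperones rarely went together. Pearson's r of log2(1 + UMI) was averaged over 20 thinnings to 800 UMIs, for members with 50 or more UMIs in the library; cells share the library, so r is a description without a p. The mean over pairs of members was 0.021 in VAT library 2 (36 pairs, Hsph1 falling short), 0.029 in VAT library 3 (45 pairs) and 0.034 in spleen (45 pairs), where the mean over all pairs of genes was -0.00010, -0.00015 and 0.00019. The medians were 0.010, 0.013 and 0.029 over the members' pairs and -0.003 in each library over all pairs. Pairs above 0.1 numbered 3, 4 and 5, or 8.33%, 8.89% and 11.1% of the members' pairs, against 0.942%, 1.02% and 1.23% of all pairs of genes. At this depth a chaperone other than Hspa8 and Hsp90ab1 averaged under 0.5 UMIs per cell, and correlations this small in counts this sparse are not read as co-regulation.

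The highest pair in every library was Hspa1a with Hspa1b, at 0.19 in VAT library 2, 0.40 in VAT library 3 and 0.37 in spleen, where 0.0137%, 0.00209% and 0.00237% of all gene pairs had a higher r. Reads shared between the near-identical copies can move both counts in the same cell, and their part was not tested. Next by the smallest r over the libraries came Hsp90ab1 with Hspe1 (0.07, 0.07 and 0.11), Hspa1b with Dnajb1 (0.08, 0.07 and 0.09) and Hspa8 with Hsp90ab1 (0.13, 0.05 and 0.12). Some pairs were high in a single library. Hspa1a with Dnajb1 stood at 0.04 and 0.01 in VAT and 0.14 in spleen. Hspa1b with Hspe1 stood at -0.04 in VAT library 2, 0.11 in VAT library 3 and 0.01 in spleen. The neighbours Hspd1 and Hspe1, which share a block of heat shock elements in the window of 1 of the 2 Hspd1 starts, stood at 0.02, 0.03 and 0.04. Hspa5 with Hspa1b stood at -0.07, 0.01 and 0.01.

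**Figure D5:**
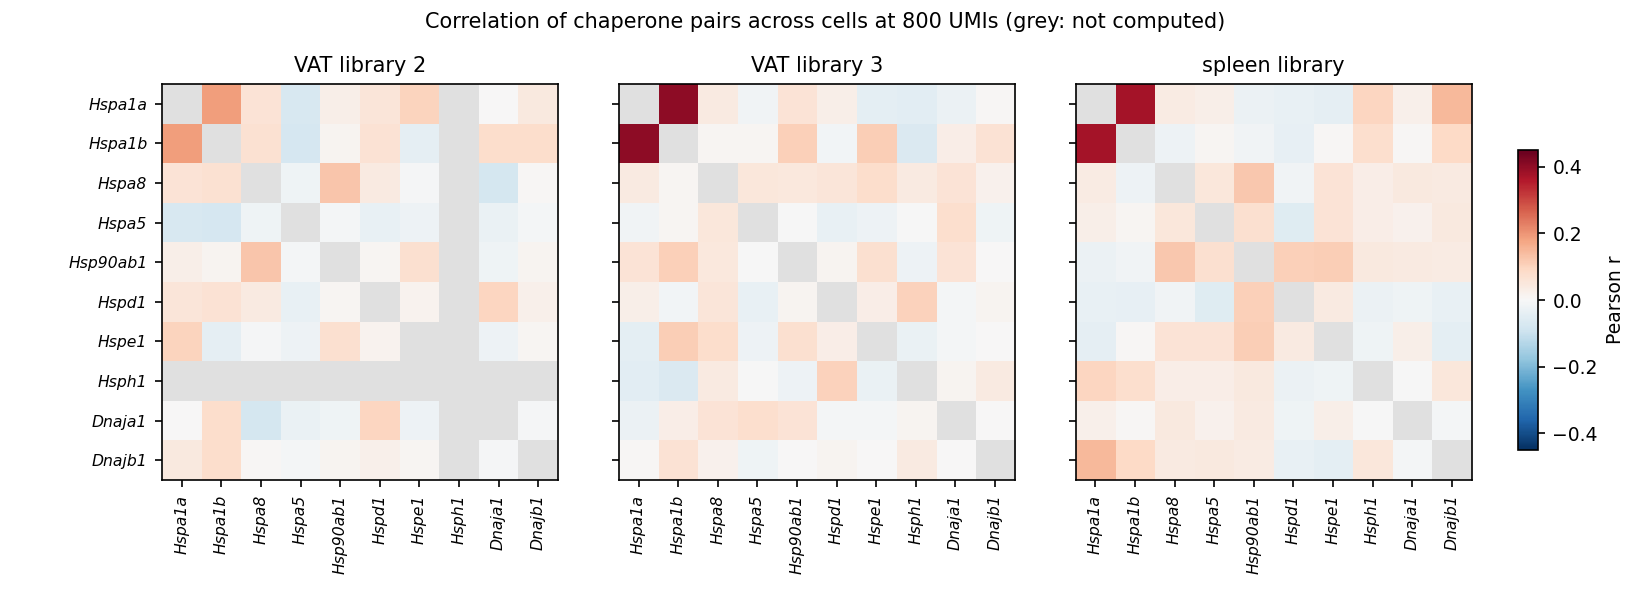
Pearson's r across cells between each pair of chaperones in VAT library 2 (330 cells), VAT library 3 (314) and spleen (375), each cell thinned to 800 UMIs, mean of 20 thinnings; grey marks the diagonal and Hsph1 in VAT library 2, which had 30 UMIs there. The square of Hspa1a with Hspa1b stands out at 0.19, 0.40 and 0.37, and the others are pale.

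The summed UMIs of the 10 members per cell were set against other programmes in the same way. With the AP-1 and immediate early list r of the sum was 0.08 and -0.02 in VAT and 0.11 in spleen, so its sign differed between the VAT libraries. Single members went both ways with that list, from -0.15 for Hspe1 in VAT library 3 to 0.14 for Hspa1a in spleen. With the other HSP90, HSP70, HSP110 and small HSP genes r of the sum was 0.12 and 0.12 in VAT and 0.14 in spleen. With the nucleolar and growth list it was 0.10 and 0.06 in VAT and 0.11 in spleen, and with ribosomal proteins -0.004 and 0.05 in VAT and -0.18 in spleen. With the ER folding list it was 0.04 and 0.01 in VAT and 0.16 in spleen; whether the tissues differ in these values was not tested. With the number of UMIs in the cell before thinning it was -0.01 and -0.04 in VAT and 0.02 in spleen, and with the percentage of reads mapped 0.11 and 0.02 in VAT and 0.13 in spleen.

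Of 583 genes with 100 or more UMIs in every library, Hsp90aa1 was most like the sum of the chaperones across cells, by the smallest r over the libraries, at 0.16 and 0.11 in VAT and 0.12 in spleen. Tuba1b, an alpha-tubulin, followed at 0.11 and 0.06 in VAT and 0.12 in spleen, then Atf4, the transcription factor of the integrated stress response, at 0.08 and 0.05 in VAT and 0.13 in spleen, and Npm1, nucleophosmin, at 0.09 and 0.14 in VAT and 0.05 in spleen. Hnrnpa2b1, Set, Rps2, Hmgb1, Nhp2l1 and Morf4l1-ps1 completed the 10, with smallest values of 0.03 to 0.04. Of 1227 genes with 50 or more UMIs in every library, Atf4 was also most like Hspa1a, at 0.08 and 0.07 in VAT and 0.19 in spleen. Hsp90aa1 was most like Hspa8, at 0.11 and 0.09 in VAT and 0.10 in spleen, Tuba1b most like Hsp90ab1, at 0.07 and 0.15 in VAT and 0.17 in spleen, Psma2 most like Hspa1b, and Csnk2a1 most like Hspa5.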

How the data were processed

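inDrops libraries of sorted CD4+ CD25+ T cells from VAT and spleen were analysed from a table of UMI counts deposited by the authors, genes in rows and cells in columns, whole numbers and not normalized. Per the submitters' processing notes, TopHat2, SAMtools and mouse build mm10 were used; versions, the counting annotation, the cell filter and doublet removal are not given in the sources used here. Cells held 887 to 3725 UMIs in VAT library 2, 916 to 4973 in VAT library 3 and 819 to 4244 in spleen. A gene without a UMI could stand at up to 5.39, 5.47 and 5.23 CPM in these libraries, by a floor of 3 counts. A second deposited table repeated label values and was not used.

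UMIs were summed per library and scaled to CPM, with Poisson intervals. Ratios have exact conditional binomial intervals at 95%, and calls used log2 ratios with 0.5 added to each count. A gene with 50 or more UMIs over the 3 libraries was called when at least 2-fold higher or lower in both VAT libraries. Cells were thinned without replacement to 800 UMIs, 20 times with a fixed seed; shares of cells are means of these, with exact Clopper-Pearson intervals at the rounded number of cells. No test was run, no doublet caller was used, and cells were not treated as replicates. Scripts were tested on simulated data. Python 3.11.15, numpy 2.4.6, scipy 1.17.1, pandas 2.3.3 and edgeR 4.0.16 (scaling factors alone) were used.

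The members and lists were chosen with earlier results of these data known. Of each list, the text names genes past 2-fold, up to 6 by the smaller absolute log2 ratio, or otherwise the 2 with most UMIs; a few of these are left out of the lists that are not about folding. Likeness is ranked by the smallest r over the libraries. Gene positions are from GENCODE M21 on GRCm38 and promoter windows from RefSeq on GRCm38.p6.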

Additional observations from a re-analysis of the deposited data

How the results depend on the processing

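The comparisons were recomputed under settings listed for this series and no others. The count of members past the threshold in both VAT libraries, 0 higher and 0 lower at 2-fold, became 1 higher and 1 lower at 1.5-fold. It became 1 lower, in each case Hspe1, with totals without ribosomal protein genes (fewer UMIs in the totals) and in cells with a Foxp3 UMI (128 and 98 in VAT, 130 in spleen). Of all 4635 genes, 342 and 302 were lower in these settings, against 204 in the main one. Without VAT replicate 2 or without VAT replicate 3 it was 1 lower each time, Hspe1 and Hsph1 by turn. Of all genes, 409 and 343 were then lower, so these calls came with more calls among all genes. Other filters, TMM scaling, per-cell means, thinning, marker-free cells and summing Hspa1a with Hspa1b left both counts at 0. The members' median log2 ratio, -0.24 over both libraries, ran from -0.46 to -0.21. Single members were held against 0.27, their pooled standard deviation between the VAT libraries, to which Hsph1 (log2 ratios -1.49 and -0.58) gave the most. The shifts of -0.24 and -0.21 without ribosomal protein genes fell just under this spread, so they count as unmoved. Of 156 recomputed log2 ratios of single members, 140 moved by less than this spread and 18 changed sign. Of these, 3 started from a ratio larger than that spread: Dnajb1 in VAT library 2 (-0.59) and Hsph1 in VAT library 3 (0.56) in cells with a Foxp3 UMI, and Hsph1 in VAT library 3 (0.19) in cells without other types' markers. The rest were smaller ratios of Hspa8, Hspa1a, Hspa1b, Hspd1, Dnaja1 and Dnajb1. The cause was not tested.

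The mean r over pairs of members was 0.022 in VAT library 3 and 0.026 in spleen at 500 UMIs per cell, 0.030 in VAT library 2 and 0.017 in spleen at 1000 (14, 6 and 29 cells left out), and 0.034 and 0.043 in VAT libraries 2 and 3 unthinned. It was 0.022 in spleen by Spearman's rho, 0.014 in VAT library 3 and 0.015 in spleen in cells with a Foxp3 UMI, 0.020 in VAT library 3 and 0.026 in spleen without the pair Hspa1a and Hspa1b, and 0.028 in spleen at 600 UMIs without ribosomal protein genes. The order of the libraries therefore depended on the setting. In cells with a Foxp3 UMI, r of the chaperone sum with the AP-1 list was -0.034 and -0.143 in VAT libraries 2 and 3 and 0.178 in spleen. No paired analysis was possible because 1 spleen library shares at most a number with the VAT libraries. Depth limits Hsph1, Hspd1 and Hspa1a most, with 30 to 90 UMIs a library.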
